A study of Mus musculus with 9 samples.

Results

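The genes examined here were 10 genes of epidermal growth factor receptor (EGFR) signaling, taken by symbol from the 17943 genes of the skin expression table. They comprised 6 ligands (*Hbegf*, *Areg*, *Ereg*, *Epgn*, *Tgfa* and *Btc*), 3 receptors (*Egfr*, *Erbb2* and *Erbb3*) and the feedback inhibitor *Errfi1*, and all 10 passed the low-count filter. Messenger RNA was sequenced from whole skin of 5 control and 4 *Supt6*-KO mice. *Supt6* encodes SPT6, a factor that travels with RNA polymerase II during transcription elongation. According to the study's methods, all mice carried *Supt6* fl/fl alleles, the *Supt6*-KO mice also carried the K14-CreERT transgene and were injected with tamoxifen in the first telogen, and the controls had no Cre and received corn oil. The labels call the genotypes WT and Supt6 knockdown and give the tamoxifen protocol for every mouse. Skin was taken on day 10 after the final injection, and the mice's age was not given in the sources used here. According to the study, the *Supt6*-KO samples were lesional skin and the control samples were matched skin. By the study's methods, Cre and tamoxifen differed together between the groups and cannot be told apart, whereas the labels give no difference in tamoxifen. The keratin 14 promoter drives Cre in basal keratinocytes, so the deletion arises there and passes to the cells that descend from them, and other cells of whole skin do not carry it through this Cre. Libraries held 29627334 to 30491190 estimated counts in the control mice and 30597190 to 30967109 in the *Supt6*-KO mice.

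The labels name the tissue ear, and the study's methods name dorsal skin. The cartilage genes *Acan*, *Col2a1*, *Cnmd* and *Col9a1* together reached at least 9857 counts in every control mouse, while *Matn1*, another cartilage gene, had at most 1 count in a mouse. Of 7 *Hox* genes that mark trunk skin, 5 were in the table, and their counts summed to at most 15 in any mouse. The keratinocyte gene *Krt14* was abundant in every mouse, at 2972 to 9613 CPM (counts scaled to library size and by TMM factors, which correct for differences in library composition).

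EGFR ligands are made as membrane proteins on the cell surface and are released by metalloproteases. They bind EGFR, which pairs with itself or with ERBB2 or ERBB3 and signals through RAS and ERK to drive proliferation, migration and survival of keratinocytes. ERBB2 has no known ligand of its own, and ERBB3 has little kinase activity and binds neuregulins. *Errfi1* (also called *Mig6*) is induced by this signaling, and its product binds the kinase domain of EGFR and shuts it off. In skin the ligands are best known from wound repair and hyperplasia.

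The promoters of 4 members are shown because they pair members that moved in opposite directions. Each run holds the 120 bases before the RefSeq transcription start in GRCm38.p6, written along the gene's strand, with capitals marking matches to the motifs searched.
Areg, chr5:91139479-91139598, plus strand: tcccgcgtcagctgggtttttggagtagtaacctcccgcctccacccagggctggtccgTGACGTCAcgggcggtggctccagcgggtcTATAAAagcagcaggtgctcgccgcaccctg
Errfi1, second start, chr4:150854950-150855069, plus strand: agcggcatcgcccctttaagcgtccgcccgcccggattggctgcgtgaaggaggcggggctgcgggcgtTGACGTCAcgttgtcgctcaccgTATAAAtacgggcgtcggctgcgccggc
Epgn, chr5:91027397-91027516, plus strand: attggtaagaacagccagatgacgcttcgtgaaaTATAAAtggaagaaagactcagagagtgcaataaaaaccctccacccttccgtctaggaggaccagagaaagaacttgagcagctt
Btc, chr5:91402995-91403114, minus strand: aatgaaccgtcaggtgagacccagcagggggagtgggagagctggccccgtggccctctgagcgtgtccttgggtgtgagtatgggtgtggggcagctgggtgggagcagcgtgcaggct
The motifs were TGACGTCA, the cyclic AMP response element, TGANTCA, the AP-1 site, TATAAA, the core promoter box bound by TBP, and the NF-kB and serum response element consensus sequences, all searched on both strands from 250 bases before to 50 bases after each start. The motifs TGACGTCA and TGANTCA read the same on both strands, and no match of one was a match of another. Entries were found for 7 of 10 members, with 8 starts, and none for *Hbegf*, *Ereg* and *Erbb3*. In *Areg*, TGACGTCA began 61 bases and TATAAA 31 bases before the start. The second start of *Errfi1* held the same pair, at 51 and 28 bases. *Epgn* held only TATAAA, at 86 bases, and *Btc*, *Egfr*, *Erbb2* and the first start of *Errfi1* held no match. *Tgfa* held an NF-kB match 23 bases after its start. Among 32851 promoter windows of this length, TGACGTCA was present in 1.79%, TGANTCA in 7.81%, TATAAA in 13.6%, the NF-kB consensus in 8.46% and the serum response element in 1.63%. *Areg* and the second start of *Errfi1* shared both motifs, and the 2 genes differed in the direction of their change. Which start of *Errfi1* was used, and whether the motifs bear on the changes, was not tested.

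The targeted gene was examined first. *Supt6* (gene 20926, chr11:78206749-78245972; coordinates of genes are those of RefSeq in GRCm38.p6) measured 74.5, 56.6, 63.6, 91.1 and 96.7 CPM in control mice 1 to 5 and 28.6, 24.1, 21.9 and 28.4 CPM in *Supt6*-KO mice 1 to 4. The groups did not overlap. Means were 76.5 ± 17.2 (SD, n = 5) and 25.7 ± 3.31 CPM (SD, n = 4), and the log2 fold change was -1.57 (SE 0.18, edgeR adjusted p = 1.3e-05). The values include reads from exons outside the deleted part and from cells without Cre.

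Across the 10 members, 4 ligands rose, and 1 ligand, the 3 receptors and *Errfi1* fell. The ligands that rose were *Epgn*, *Areg*, *Hbegf* and *Ereg*, with means 28.7, 11.1, 4.8 and 2.93 times those of control. Part of the size of the first 3 came from *Supt6*-KO mouse 4, and without it the log2 fold changes were 3.12 for *Epgn* (4.84 with it), 2.90 for *Areg* (3.47), 1.72 for *Hbegf* (2.26) and 1.74 for *Ereg* (1.55). *Btc* fell to 54.6% of control, *Erbb2* to 44.2%, *Egfr* to 45.8%, *Erbb3* to 71.9% and *Errfi1* to 71.8%, and *Tgfa* did not pass the test. When a trend with transcript length was removed, the call of *Egfr* ended (-0.12, adjusted p = 0.39) and the direction of *Erbb3* turned (0.11). A change passed at an edgeR adjusted p under 0.05, and of all 16426 genes tested 34.1% were higher and 36.8% lower by that rule, so 4 and 5 of 10 members stand against a background in which most genes changed. With a change of at least 2-fold required besides, the 4 ligands counted as higher against 20.9% of all genes, and *Egfr* and *Erbb2* as lower against 24.9%. In each of the 9 members that passed, the 2 groups did not overlap in TMM-scaled CPM. That was so for 28.9% of all genes in the higher direction and 31.8% in the lower direction.

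**Figure D1:**
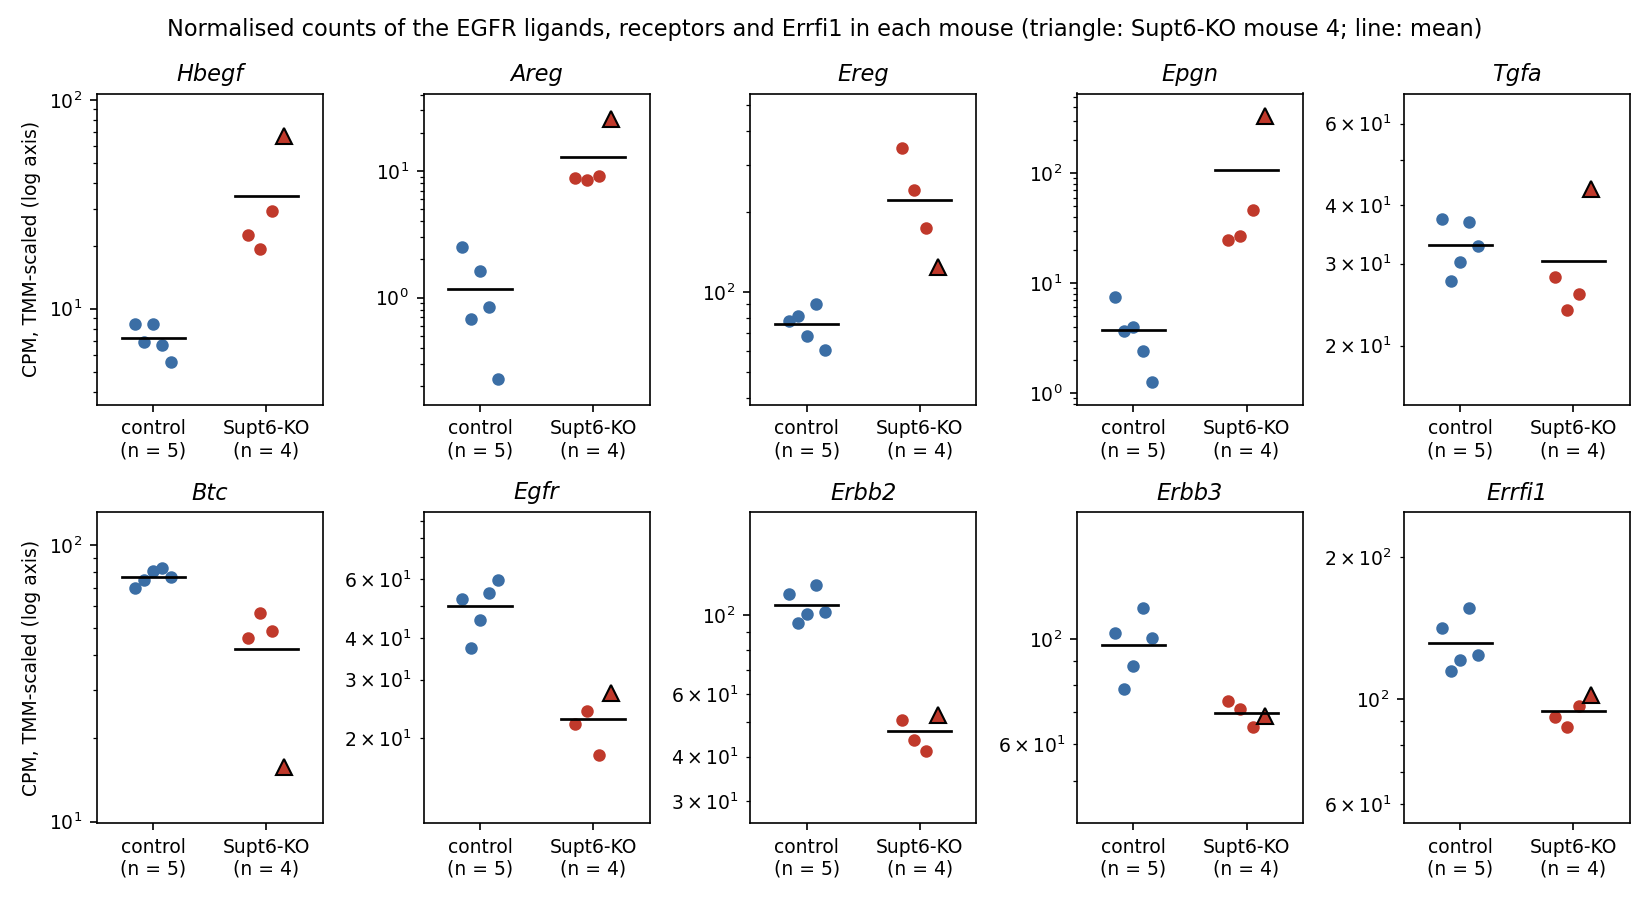
TMM-scaled CPM of each member on log axes, which differ between panels, with a point for each mouse and a line at the group mean (control, n = 5, blue; *Supt6*-KO, n = 4, red; the triangle is *Supt6*-KO mouse 4). *Hbegf*, *Areg*, *Ereg* and *Epgn* lie above all controls in every *Supt6*-KO mouse, *Btc*, *Egfr*, *Erbb2*, *Erbb3* and *Errfi1* lie below, and *Tgfa* overlaps; with a length correction *Erbb3* and *Tgfa* take the other sign.

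*Epgn* (gene 71920, chr5:91027517-91035212) encodes epigen, a ligand of low affinity for EGFR. It measured 7.41, 3.7, 3.96, 2.43 and 1.25 CPM in the control mice and 24.6, 26.8, 46.5 and 333 CPM in the *Supt6*-KO mice. All *Supt6*-KO mice exceeded all controls, and mouse 4 was 7.15 times the next highest. The log2 fold change was 4.84 (SE 0.84, edgeR adjusted p = 0.00032), and without *Supt6*-KO mouse 4 it was 3.12 (SE 0.43, edgeR adjusted p = 6.4e-05). The means were 3.75 ± 2.31 (SD, n = 5) and 108 ± 150.3 CPM (SD, n = 4), the second SD being larger than its mean.

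*Areg* (gene 11839, chr5:91139599-91148432) encodes amphiregulin, an autocrine growth factor of keratinocytes that is also made by immune cells. Its values were 2.51, 0.684, 1.61, 0.838 and 0.229 CPM in the control mice and 8.77, 8.44, 9.19 and 25.5 CPM in the *Supt6*-KO mice. The controls rested on few reads, between 9 and 94 counts each, whereas the *Supt6*-KO mice had 176 to 711. Mouse 4 was again the highest, and the other *Supt6*-KO mice lay close together. The log2 fold change was 3.47 (SE 0.57, edgeR adjusted p = 0.00022), or 2.90 (SE 0.50, adjusted p = 0.00033) without mouse 4.

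*Hbegf* (gene 15200, chr18:36504927-36515805) encodes heparin-binding EGF-like growth factor, a ligand of EGFR and ERBB4 that promotes keratinocyte migration in wounds. It measured 8.48, 6.9, 8.42, 6.73 and 5.55 CPM in the control mice and 22.6, 19.4, 29.5 and 67.0 CPM in the *Supt6*-KO mice. Mouse 4 had 2.97 times the median of the other *Supt6*-KO mice. Means were 7.22 ± 1.24 (SD, n = 5) and 34.6 ± 22.0 CPM (SD, n = 4), and the log2 fold change was 2.26 (SE 0.33, edgeR adjusted p = 8.5e-05), or 1.72 (SE 0.17, adjusted p = 6.5e-06) without mouse 4.

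*Ereg* (gene 13874, chr5:91074617-91093649) encodes epiregulin, a ligand of EGFR and ERBB4. Its values were 77.6, 81.2, 68.4, 90.1 and 60.5 CPM in the control mice and 346, 241, 174 and 124 CPM in the *Supt6*-KO mice. In contrast to the other ligands that rose, it was lowest in mouse 4 among the *Supt6*-KO mice, though still above every control. The group means, 75.5 ± 11.5 (SD, n = 5) and 221 ± 95.8 CPM (SD, n = 4), differed by a log2 fold change of 1.55 (SE 0.25, edgeR adjusted p = 2e-04). With library totals in place of TMM factors the log2 fold change was 0.83.

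*Btc* (gene 12223, chr5:91357261-91402994) encodes betacellulin, a ligand of EGFR and ERBB4, and was the only ligand to fall with TMM factors and all mice included. It measured 69.9, 74.7, 80.5, 82.3 and 76.9 CPM in the control mice and 46.3, 56.8, 49.1 and 15.8 CPM in the *Supt6*-KO mice. The controls lay within a narrow range, and mouse 4 was the lowest, at 0.321 times the median of the other *Supt6*-KO mice. The log2 fold change was -0.87 (SE 0.28, edgeR adjusted p = 0.016), and -0.60 (SE 0.11, adjusted p = 0.00039) without mouse 4.

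*Tgfa* (gene 21802, chr6:86195038-86275744) encodes transforming growth factor alpha, a keratinocyte ligand of EGFR. Its values were 37.4, 27.6, 30.2, 36.8 and 32.7 CPM in the control mice and 28.1, 23.9, 25.8 and 43.5 CPM in the *Supt6*-KO mice. The groups overlapped, with the highest value in mouse 4. The log2 fold change was -0.12 (SE 0.18, edgeR adjusted p = 0.57). Its call depended on mouse 4 and on scaling: without that mouse it was -0.35 (adjusted p = 0.025), with library totals -0.77 (adjusted p = 0.015), and with a length correction 0.23 (adjusted p = 0.22).

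Among the *Supt6*-KO mice, the SDs of the receptors were small relative to their means, unlike those of *Epgn*, *Areg* and *Hbegf*. *Egfr* (gene 13649, chr11:16752203-16913907), the receptor of all 6 ligands, measured 52.3, 37.3, 45.3, 54.6 and 59.8 CPM in the control mice and 22.1, 24.2, 17.8 and 27.3 CPM in the *Supt6*-KO mice. The lowest control exceeded the highest *Supt6*-KO mouse. Averages of 49.9 ± 8.7 (SD, n = 5) and 22.9 ± 4.0 CPM (SD, n = 4) gave a log2 fold change of -1.12 (SE 0.17, edgeR adjusted p = 9.4e-05). *Egfr* has the longest annotated transcript of the 10 members, 10208 bases, and when a linear trend of counts with transcript length was removed within each mouse the fold change was -0.12 (adjusted p = 0.39).

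*Erbb2* (gene 13866, chr11:98412484-98437716), the co-receptor that amplifies signals of its partners, measured 115, 94.8, 101, 122 and 102 CPM in the control mice and 50.6, 44.5, 41.6 and 52.4 CPM in the *Supt6*-KO mice. The 2 groups were far apart relative to their spread. The log2 fold change was -1.18 (SE 0.12, edgeR adjusted p = 7.4e-06), and -0.74 (adjusted p = 0.00012) with the length correction.

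*Erbb3* (gene 13867, chr10:128567523-128589635) measured 103, 78.4, 87.7, 116 and 100.3 CPM in the control mice and 73.9, 71.2, 65.2 and 68.6 CPM in the *Supt6*-KO mice. The lowest control exceeded the highest *Supt6*-KO mouse by little. The log2 fold change was -0.48 (SE 0.13, edgeR adjusted p = 0.0056), but 0.11 (adjusted p = 0.40) with the length correction, for a transcript of 6016 bases.

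*Errfi1* (gene 74155, chr4:150853796-150868889) measured 142, 115, 121, 156 and 124 CPM in the control mice and 91.7, 87.4, 96.8 and 102 CPM in the *Supt6*-KO mice. It fell in company with the receptors, with a log2 fold change of -0.48 (SE 0.12, edgeR adjusted p = 0.0043). Mouse 4, in which *Epgn*, *Areg* and *Hbegf* were highest, had an *Errfi1* value only 1.11 times the median of the other *Supt6*-KO mice. With the length correction the fold change was -0.44 (adjusted p = 0.006).

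**Figure D2:**
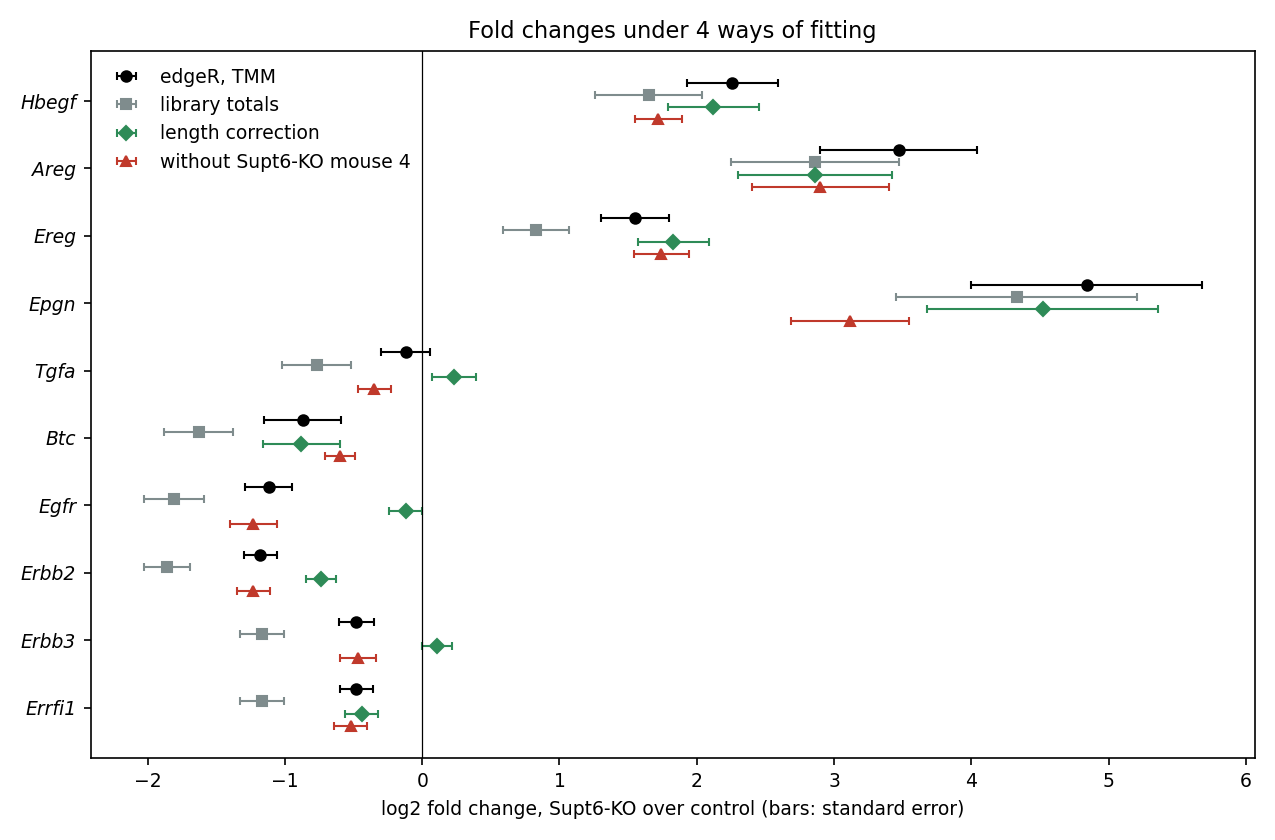
Log2 fold change of each member (*Supt6*-KO over control, 5 control and 4 or 3 *Supt6*-KO mice) with its standard error, from the TMM fit and from fits with library totals, with a length correction and without *Supt6*-KO mouse 4. *Hbegf*, *Areg*, *Ereg* and *Epgn* stay above 0 and *Btc*, *Erbb2* and *Errfi1* below 0 in all 4 fits, while *Egfr* comes close to 0 (-0.12) and *Erbb3* (0.11) and *Tgfa* (0.23) cross it with the length correction.

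Scaling set the size of these changes. Over all genes tested, the median log2 fold change was -0.07 with TMM factors and -0.76 with library totals, since TMM factors were 1.20 to 1.31 in the control mice and 0.674 to 0.910 in the *Supt6*-KO mice. Against that shifted median, library totals gave -1.81 for *Egfr*, -1.86 for *Erbb2*, -1.17 for *Erbb3* and for *Errfi1*, and -1.63 for *Btc*. The ligands that rose stayed positive there, *Epgn* at 4.33, *Areg* at 2.86 and *Hbegf* at 1.65.

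Levels of different genes were compared per transcript length, in TPM, the length-scaled transcript abundance that RSEM gives. TPM adds up to a fixed total in each mouse and carries no TMM factor, so it was used to compare genes within a group and not to test the groups. In the control mice *Errfi1* was the highest member at 76.9 ± 15.3 TPM (SD, n = 5), followed by *Btc* at 47.8 ± 6.86, *Erbb2* at 36.4 ± 6.55, *Ereg* at 31.2 ± 4.85, *Erbb3* at 27.4 ± 6.56, *Egfr* at 15.0 ± 4.38 and *Tgfa* at 12.5 ± 2.61 TPM. *Hbegf* (5.52 ± 0.736), *Epgn* (4.19 ± 2.6) and *Areg* (2.03 ± 1.58 TPM) came last. Neighbours in this order overlapped in their ranges over the mice, except *Errfi1* and *Btc*, and *Tgfa* and *Hbegf*. In the *Supt6*-KO mice *Epgn* came first at 56.8 ± 90.2 TPM (SD, n = 4), ahead of *Ereg* at 32.3 ± 14.2, *Errfi1* at 20.2 ± 6.73, *Hbegf* at 10.9 ± 10.1, *Areg* at 9.47 ± 9.01 and *Btc* at 8.67 ± 2.59 TPM. *Erbb3*, *Erbb2*, *Tgfa* and *Egfr* followed at 7.07 ± 1.94, 5.94 ± 2.21, 4.38 ± 2.59 and 2.56 ± 1.15 TPM, and every pair of neighbours in this order overlapped. The rank of *Epgn* rested on mouse 4, at 192 TPM, since it was 8.79 to 15.9 TPM in the others. *Hbegf* overlapped between the groups in TPM, at 4.65 to 6.56 in the control and 4.3 to 26.0 in the *Supt6*-KO mice. So did *Areg* (0.48 to 4.49 and 4.3 to 22.9) and *Ereg* (25.8 to 38.9 and 21.4 to 53.1). The other members, *Tgfa* included, did not overlap in TPM.

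The make-up of the ligand mRNA pool does not depend on the scaling of a library, though it does depend on transcript length. *Btc* made up 39.7%, 45.8%, 48.2%, 45.7% and 52.3% of the summed TPM of the 6 ligands in the control mice and 11.8%, 17.2%, 14.9% and 1.75% in the *Supt6*-KO mice. *Epgn* made up 7.81%, 4.19%, 4.38%, 2.5% and 1.57% in the control mice and 11.6%, 15.0%, 26.1% and 68.6% in the *Supt6*-KO mice. *Btc* was thus the leading ligand transcript in every control, *Ereg* in *Supt6*-KO mice 1 to 3 (58.8%, 48.8% and 35.2%), and *Epgn* in mouse 4, where *Ereg* held 9.25%. The share of *Areg* was 0.442% to 4.11% in control mice and 6.39% to 8.2% in *Supt6*-KO mice, and that of *Hbegf* was 4.65% to 6.27% and 7.14% to 11.1%. *Tgfa* held 10.2% to 13.5% in the control mice and 2.92% to 4.73% in the *Supt6*-KO mice, without overlap.

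Of the 6 ligands, 4 are neighbours in the genome. *Epgn*, *Ereg*, *Areg* and *Btc* follow each other over 375 kb of chromosome 5 (chr5:91027517-91402994), and they were the only 4 genes of the table in that window. The 3 that rose lie side by side, and *Btc*, at the far end and on the opposite strand to *Epgn* and *Areg*, fell. The flanking genes were looked up after the members' values were seen. On the *Epgn* side, *Mthfd2l*, an enzyme of mitochondrial folate metabolism, measured 6.58 to 7.5 CPM in the control mice and 9.57, 11.8, 12.0 and 21.3 CPM in the *Supt6*-KO mice, with a log2 fold change of 0.96 (SE 0.21, edgeR adjusted p = 0.0017). With library totals it was 0.31 and did not pass (adjusted p = 0.32). *Parm1*, beyond *Btc*, had 0.02 (SE 0.38, adjusted p = 0.96). *Hbegf* and *Tgfa* lie on other chromosomes, and *Egfr* and *Erbb2* are both on chromosome 11.

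Genes with the most similar profile were sought by Euclidean distance between log2 CPM values, centred on each gene's mean, over the 9 mice among 13564 genes. Nearest to *Epgn* were *Krt6a* (distance 1.67), a keratin of wounded and hyperplastic epidermis, *Aldh1a3* (1.75), which makes retinoic acid, and *Gml* (2.01). *Krt6a* measured 75.9 to 158 CPM in the control mice and 1296, 616, 1350 and 7578 CPM in the *Supt6*-KO mice, so that it too was far highest in mouse 4. Nearest to *Erbb2* were *Map7* (0.182), *Rhbdf2* (0.196) and *Fcsk* (0.207), and nearest to *Errfi1* were *Pias1* (0.246), *Lemd3* (0.252) and *Ulk3* (0.281). *Erbb2* and *Errfi1*, whose distances were smaller than those of *Epgn*, also had smaller changes and less spread between mice.

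The counts in the pathway lists stand against the shares over all genes tested, 34.1% higher and 36.8% lower. Among the remaining ErbB genes, the highest mean in the control mice was 6.28 CPM, for *Nrg2*. Of 6, 5 were tested, 1 rose and 4 fell, with a median log2 fold change of -1.21 against -0.07 for all genes. *Nrg1*, a neuregulin that binds ERBB3 and ERBB4, measured 2.51, 1.94, 1.27, 1.76 and 0.917 CPM in the control mice and 2.88, 3.07, 2.74 and 16.5 CPM in the *Supt6*-KO mice. It was 5.36 times as high in mouse 4 as in the next, and its log2 fold change of 1.91 (SE 0.55, edgeR adjusted p = 0.0085) was 0.78 (adjusted p = 0.03) without that mouse. With library totals it did not pass (1.35, adjusted p = 0.063). *Erbb4* had 26 to 42 counts in each control mouse and 1 to 5 in each *Supt6*-KO mouse, with a log2 fold change of -3.07 (SE 0.44, adjusted p = 7.3e-05), or -1.95 (adjusted p = 0.0026) with the length correction, for a transcript of 12037 bases. The neuregulins *Nrg2* (-1.51, SE 0.33, adjusted p = 0.0017) and *Nrg4* (-1.21, SE 0.20, adjusted p = 2e-04) fell. *Egf*, the founding ligand, was at -0.79 (SE 0.30, adjusted p = 0.034). That call was lost on leaving out control mouse 1, 3 or 5 or *Supt6*-KO mouse 1, 2 or 4. It was also lost with the length correction (-0.38, adjusted p = 0.3). *Nrg3* had a single count in all.

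Among 7 genes of ligand shedding, 1 rose, 3 fell and 3 did not pass (median -0.26). The list median was 0.15 with the length correction, against -0.02 for all genes tested. *Adam17*, the main sheddase of EGFR ligands, measured 68.5 to 74.3 CPM in the control mice and 63.5, 62.9, 63.8 and 78.4 CPM in the *Supt6*-KO mice, at -0.09 (SE 0.10, edgeR adjusted p = 0.46), but at 0.25 (adjusted p = 0.042) with the length correction. *Rhbdf1* and *Rhbdf2* encode the iRhoms that carry ADAM17 to the cell surface, and both fell. *Rhbdf1* went from 46.5 ± 2.96 (SD, n = 5) to 15.4 ± 2.92 CPM (SD, n = 4), at -1.59 (SE 0.14, adjusted p = 2.2e-06), and *Rhbdf2* from 41.0 ± 4.36 to 17.9 ± 1.06 CPM, at -1.20 (SE 0.11, adjusted p = 4.4e-06). *Timp3*, an inhibitor of ADAM17, fell from 409 ± 109 to 93.5 ± 17.8 CPM, at -2.13 (SE 0.21, adjusted p = 5.7e-06). *Adam10*, which sheds betacellulin, was the gene that rose, at 0.55 (SE 0.11, adjusted p = 0.001), but at -0.12 with library totals.

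In the cascade from EGFR to ERK, 5 of 16 genes rose, 6 fell and 5 did not pass, with a median of -0.02, which is close to the background of 34.1% higher and 36.8% lower over all genes. *Hras*, a RAS GTPase, rose from 114 ± 24.1 (SD, n = 5) to 356 ± 59.8 CPM (SD, n = 4), at 1.64 (SE 0.18, edgeR adjusted p = 1.2e-05). *Map2k1*, the kinase MEK1, went from 41.3 ± 3.29 to 86.8 ± 23.0 CPM, at 1.07 (SE 0.16, adjusted p = 1e-04), but with library totals it did not pass (0.41, adjusted p = 0.11). *Sos1*, which loads RAS with GTP, fell from 27.1 ± 1.64 to 14.9 ± 2.63 CPM, at -0.87 (SE 0.14, adjusted p = 0.00018), and was at -0.03 with the length correction. The balance of this list depended on scaling, since library totals gave 1 higher and 12 lower. The list median was then -0.69, against -0.76 over all genes tested.

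Of 17 other brakes on EGFR signaling, 4 rose, 9 fell and 4 did not pass (median -0.47), against 34.1% higher and 36.8% lower over all genes. With the length correction the median of the list was -0.2, against -0.02 for all genes tested. *Spred2*, an inhibitor of RAF activation, was the most reduced, from 25.1 ± 5.07 (SD, n = 5) to 2.35 ± 1.26 CPM (SD, n = 4), at -3.40 (SE 0.35, edgeR adjusted p = 7.4e-06). *Spry4*, a Sprouty inhibitor of RAS signaling, measured 2.24 to 4.07 CPM in the control mice and 0.752, 0.384, 0.503 and 1.01 CPM in the *Supt6*-KO mice, at -2.16 (SE 0.31, adjusted p = 7.3e-05). *Cbl*, a ubiquitin ligase that sends EGFR to degradation, fell from 5.55 ± 1.29 to 1.54 ± 0.529 CPM, at -1.84 (SE 0.27, adjusted p = 9.6e-05). The brakes that rose, named here after their values were seen, were *Rnf41* (1.22), *Socs4* (0.93), *Socs5* (0.65) and *Rasa1* (0.24), and with library totals *Socs5* (-0.02) and *Rasa1* (-0.46) turned and 1 brake was higher. The call of *Rasa1* also ended on leaving out control mouse 1, 3 or 4 or *Supt6*-KO mouse 1, 2 or 3. It ended too with the replicate number as a block (0.23, adjusted p = 0.068).

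Of 10 genes known as outputs of the MAPK pathway, 2 rose, 4 fell and 4 did not pass (median -0.35, or -0.15 with the length correction). *Spry2* and *Spry4* are counted here and among the brakes. The ETS factors *Etv4* and *Etv5* moved in opposite directions. *Etv4* measured 3.96 to 4.92 CPM in the control mice and 10.3, 8.11, 6.04 and 27.4 CPM in the *Supt6*-KO mice, at 1.59 (SE 0.37, edgeR adjusted p = 0.0024), or 0.91 (adjusted p = 0.00085) without mouse 4. *Etv5* measured 14.7 to 26.2 CPM in the control mice and 3.09, 3.31, 3.06 and 9.12 CPM in the *Supt6*-KO mice, at -2.03 (SE 0.34, adjusted p = 0.00025). The other gene that rose, *Phlda1*, and the cell cycle gene *Ccnd1* were chosen after their values were seen, because mouse 4 stood apart in them. *Phlda1* was at 1.10 (SE 0.29, adjusted p = 0.0053), or 0.58 (SE 0.13, adjusted p = 0.0015) without mouse 4. *Ccnd1* measured 78.5 to 102 CPM in the control mice and 39.0, 31.1, 32.5 and 120.3 CPM in the *Supt6*-KO mice, and its log2 fold change was -0.67 (adjusted p = 0.12), or -1.38 (adjusted p = 2.6e-06) without mouse 4. With library totals *Etv4* and *Phlda1* did not pass (adjusted p = 0.059 and 0.25), whereas *Ccnd1* passed (-1.27, adjusted p = 0.022).

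**Figure D3:**
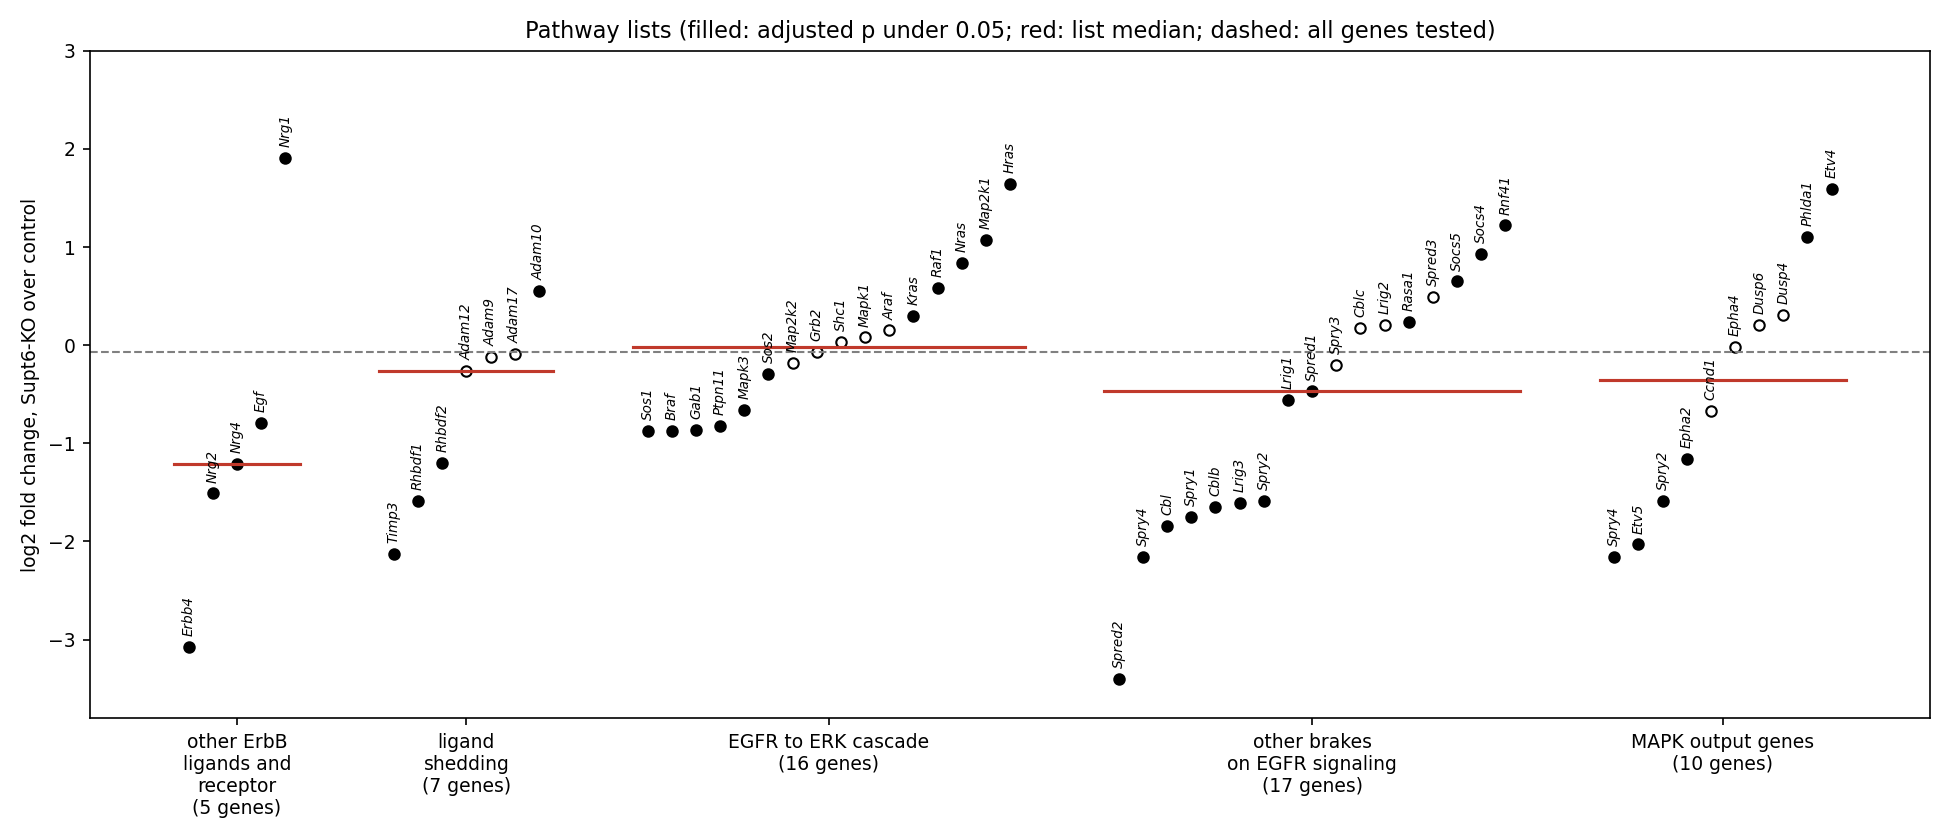
Log2 fold change (*Supt6*-KO, n = 4, over control, n = 5) of every tested gene in the 5 pathway lists, ordered within each list; filled points have an edgeR adjusted p under 0.05, red lines are list medians and the dashed line is the median of all genes (-0.07). *Nrg1*, *Hras* and *Etv4* lead upward and *Spred2*, *Erbb4*, *Spry4* and *Timp3* downward under TMM scaling. With library totals the EGFR to ERK list has 1 gene higher and 12 lower, and its median is -0.69, against -0.76 for all genes.

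Marker mRNAs of several skin cell types also differed between the groups, and in whole tissue fewer cells of a type and less RNA per cell cannot be told apart. The counts in the marker lists, like those above, stand against 34.1% higher and 36.8% lower over all genes tested. Of 6 basal keratinocyte markers, 5 fell and none rose. Their summed level was 11613, 12072, 11552, 13167 and 11706 CPM in the control mice and 8384, 5790.3, 7001 and 14080.1 CPM in the *Supt6*-KO mice, mouse 4 being the highest of all. *Krt14*, the most abundant of them in the *Supt6*-KO mice, was at 0.66 (SE 0.30, edgeR adjusted p = 0.063). It was at 0.21 (adjusted p = 0.27) without mouse 4 and at 0.05 with library totals. In mouse 4 it measured 9613 CPM, against 2972 to 3809 CPM in the control mice, while the other 5 markers each lay below every control.

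Immune markers moved in several directions. All 5 neutrophil markers rose, from a summed 3.92 to 9.31 CPM in the control mice to 38.4, 35.8, 83.6 and 27.7 CPM. In 4 of these markers the groups did not overlap. The remaining marker overlapped and had only 4, 0, 15 and 1 counts in *Supt6*-KO mice 1 to 4. *Cxcr2* had the highest CPM of the neutrophil markers in every control and in *Supt6*-KO mice 1 and 4. *Retnlg*, at 11.7, 13.4, 53.4 and 4.06 CPM in *Supt6*-KO mice 1 to 4, had it in the others. Of 5 macrophage markers 4 rose and 1 fell, and their sum was 70.5 to 162 CPM in the control mice and 158, 162, 161 and 194 CPM in the *Supt6*-KO mice. In 2 of the 4 macrophage markers that rose, the groups did not overlap, and in the rest of the 4 they did. *Csf1r*, the marker that fell (-1.83), had the highest CPM in every control. *Mrc1*, which rose (1.89), had it in every *Supt6*-KO mouse, and the sum was highest in mouse 4. The T cell sum, led by *Cd3g*, was 23.5 to 34.7 CPM in the control mice and 10.4, 6.91, 6.04 and 4.38 CPM in the *Supt6*-KO mice, with 3 of 4 markers lower. Mast cell markers overlapped between the groups, with *Mcpt4* highest on average in the control mice and *Cma1* in the *Supt6*-KO mice. *Cma1* was the 1 of 4 that rose (0.59), a call lost on leaving out control mouse 4 or *Supt6*-KO mouse 1 or 3, and it was at -0.11 with library totals.

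Markers of other skin structures mostly fell, against 36.8% of all genes tested. All 6 hair shaft and inner root sheath genes fell, but they varied widely among the controls, whose sums were 1535, 133, 543, 304 and 2.22 CPM against 1.44 to 1.97 CPM in the *Supt6*-KO mice, with *Krt71* the most abundant on average over the mice. Sebocyte markers (4 of 5 lower, led by *Fa2h*), Schwann cell markers (4 of 4 lower, led by *Mbp*), skeletal muscle markers (4 of 5 lower, led by *Acta1*) and cartilage markers (4 of 4 tested lower, led by *Acan*) had sums that did not overlap between the groups. The gene named with each of these lists had its highest mean over the 9 mice, by CPM, and in 1 of the groups another gene of the list was higher. Fibroblast markers, led by *Col3a1*, had 3 of 5 lower, with sums of 2508 to 9312 CPM in the control mice and 1435 to 3180.1 CPM in the *Supt6*-KO mice. All 4 melanocyte markers, led by *Dct*, rose, from sums of 37.5 to 49.2 CPM to 79.8 to 149 CPM. The part of these marker differences in the changes of the EGFR ligands, receptors and *Errfi1* was not tested.

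**Figure D4:**
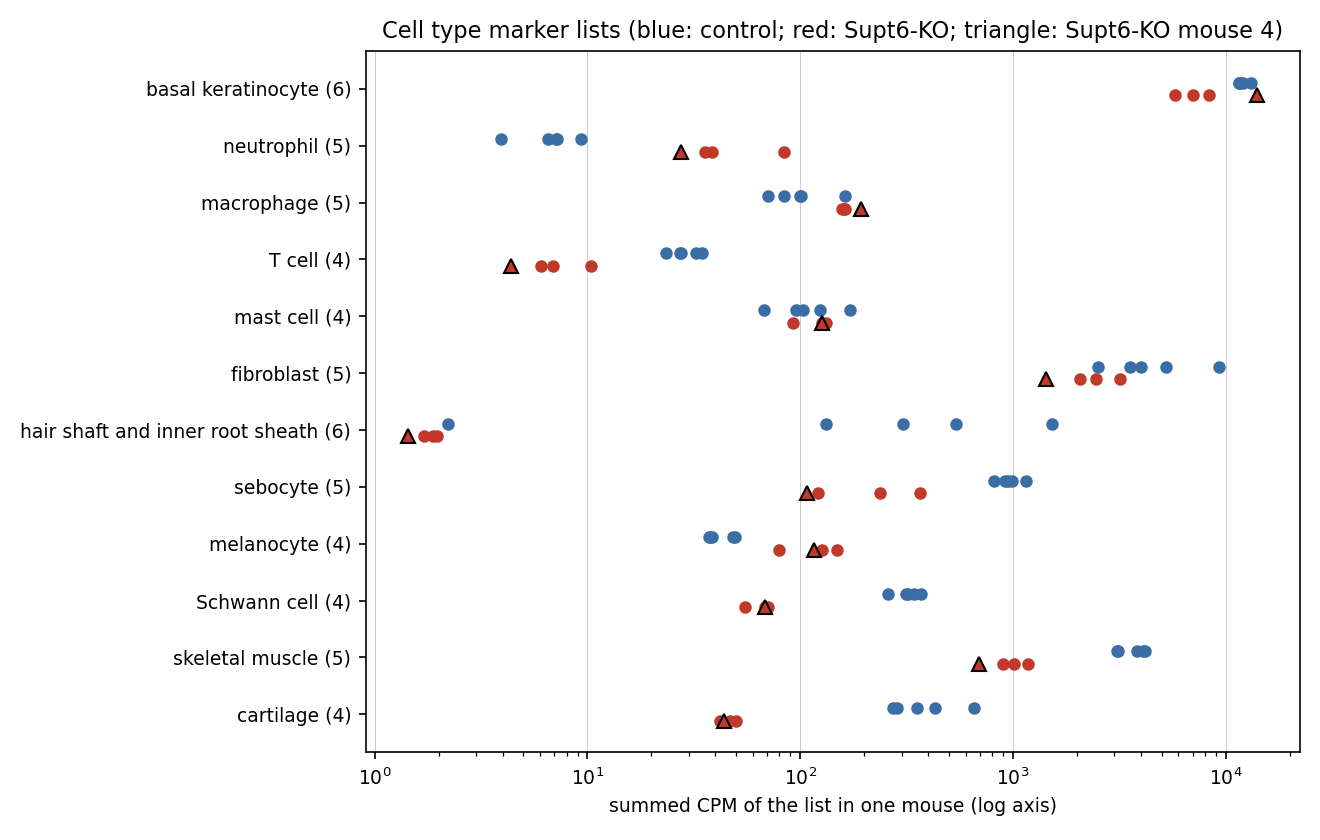
Summed TMM-scaled CPM of each marker list in each mouse on a log axis (control, n = 5, blue; *Supt6*-KO, n = 4, red; the triangle is *Supt6*-KO mouse 4; genes per list in parentheses). Neutrophil and melanocyte sums are higher and T cell, sebocyte, Schwann cell, muscle and cartilage sums lower in every *Supt6*-KO mouse than in any control. The basal keratinocyte sum of mouse 4 (14080.1 CPM) lies above all controls through *Krt14* (9613 CPM), while its other 5 basal markers each lie below every control.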

How the data were processed

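RNA from skin of 5 control and 4 *Supt6*-KO mice was sequenced on a DNBSEQ platform. The authors aligned reads to mm10 with Bowtie2 (2.3.4.3) and ran RSEM (1.3.1), and the deposited values are its estimated counts for each gene, not normalized between mice; the annotation release was not given in the sources used here. HISAT and DESeq2 (1.4.5) also stand in the submitters' processing notes. Of these, 9% were not whole and were rounded for the tests. TPM values by the authors were deposited for 6 mice; those of *Supt6*-KO mice 1 to 3 were computed here from the same counts and the relative effective lengths implied by the deposited values (median deviation 3.31% in mouse 4, which served as a check).

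Genes with at least 10 counts over the 9 mice (16426 of 17943) were tested with the quasi-likelihood test of edgeR (4.0.16, R 4.3.3) with TMM factors and Benjamini-Hochberg adjustment over all genes tested. Alternatives used DESeq2 (1.42.0), other scalings and filters, a test against a 2-fold change, a correction for transcript length (17866 genes) and omission of each mouse. Of the gene identifiers, 17917 matched a RefSeq gene and 26 did not. Groups and mouse numbers come from the sample labels, which number the mice. Counting error is small at these depths, except for genes with few counts.

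Named were the members, the other ErbB genes, up to 3 leading genes of each pathway list, the most abundant marker genes and the nearest profiles. *Adam17* and *Adam10* were named besides the leading genes of ligand shedding, and other exceptions are stated. The members and lists were chosen with earlier results of these data known, so counts over them are descriptions.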

Additional observations from a re-analysis of the deposited data

Results flagged for a closer look

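In 17 of 152 groups of mouse values examined, from the tested genes named above and the summed marker lists, 1 mouse stood apart from the rest of its group by Dixon's criterion. Of the genes, 25 had been chosen after their values were seen, for instance *Phlda1* and *Ccnd1* because mouse 4 stood apart in them, or for a profile like that of a member, so the count was also made without these. It was then 9 of 102 groups, where chance flags about 1 in 20 (5.1), and 5 of the 9 were *Supt6*-KO mouse 4. With all of them, mouse 4 made up 12 of the 17 and was the highest of its group in 11. It measured 333 CPM for *Epgn* (group median 36.6), 25.5 for *Areg* (8.98), 16.5 for *Nrg1* (2.98), 9.12 for *Etv5* (3.2), 43.5 for *Phlda1* (17.0), 120.3 for *Ccnd1* (35.8), 78.4 for *Adam17* (63.6), 43.5 for *Socs5* (30.5), 7578 for *Krt6a* (1323), 7.83 for *Gml* (1.92) and 194 for the summed macrophage markers (161). The exception was *Rnf41*, at 44.6 CPM in mouse 4 (group median 62.2). Mouse 4 was also the highest *Supt6*-KO mouse for 7 of 10 members and the lowest for 2, *Ereg* and *Btc*. It measured 28.4 CPM for *Supt6*, against 21.9 to 28.6 in the other *Supt6*-KO mice. *Supt6*-KO mouse 2 was low for the summed mast cell markers (92.4 CPM, group median 127) and the summed Schwann cell markers (55.3, group median 68.3). Control mouse 5 was high for *Timp3* (595 CPM, group median 387) and *Mrc1* (42.8, group median 18.7). Control mouse 4 was high for *Fcsk* (9.95 CPM, group median 7.94).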

How the results depend on the processing

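*Supt6*, *Hbegf* and *Ereg* kept their direction and passed under all 18 alternatives, as did *Epgn* and *Areg* under the 17 that gave them a test. DESeq2 gave *Epgn* 4.91 (SE 0.88) with no p, and *Areg* had under 10 counts in 1 mouse and left the strictest filter. Tested against a 2-fold change, none of the 5 lower members passed, so members lower counted 0: *Btc* (-0.87, adjusted p = 0.75), *Egfr* (-1.12, 0.22), *Erbb2* (-1.18, 0.076), *Erbb3* (-0.48, 1) and *Errfi1* (-0.48, 1). That test called 2271 genes higher and 2770 lower, with 1 higher and 0 lower in the ERK cascade, 0 higher among MAPK outputs, shedding genes and brakes, and 0 higher and 1 lower among other ErbB genes. The length correction gave *Egfr* -0.12, *Erbb3* 0.11, *Tgfa* 0.23, *Col3a1* 0.27, *Adam17* 0.25, *Cma1* -0.22 and *Pias1* 0.10, 3 members lower, 2 ERK cascade genes lower and 3 shedding genes higher. Library totals gave *Tgfa* -0.77, *Adam10* -0.12, *Cma1* -0.11, *Rasa1* -0.46, *Socs5* -0.02 and *Parm1* -0.68, 2771 genes higher (1470 higher and 6802 lower at 2-fold), 1 higher and 12 lower in the ERK cascade, 0 higher and 6 lower in shedding, 0 higher among MAPK outputs and other ErbB genes, and 1 brake higher. DESeq2, which gave *Nrg1* no p, called 0 other ErbB genes higher. For these alternatives the cause was not tested beyond their construction. Leaving out each mouse gave ranges of 3.12 to 5.25 for *Epgn*, -1.07 to -0.60 for *Btc* and -0.35 to -0.04 for *Tgfa*, which passed only without *Supt6*-KO mouse 4. *Mcpt4* ranged from -0.30 to 0.03, turning without control mouse 5. *Parm1*, at 0.02 with few counts, ranged from -0.16 to 0.27 when a mouse was left out, and was at -0.03 with 10 counts required in every mouse and -0.06 with upper-quartile factors.

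Mice of the 2 groups share only numbers: deviations of same-numbered mice correlated at 0.0793 on average over 4 pairs (lowest -0.00856), and other pairs at -0.0165. With the replicate number as a block, 5251 genes were higher and 5800 lower against 5608 and 6050 without it. *Epgn* was at 3.62, *Areg* at 3.15 and *Mcpt4* at 0.04, and the same 4 members were higher and 5 lower. The call of *Rasa1* ended (0.23, edgeR adjusted p = 0.068). In that fit 3 brakes were higher, and the ERK cascade had 4 genes higher and 5 lower. Few counts limit *Areg*, *Erbb4*, *Nrg1*, *Spry4* and the neutrophil marker that overlapped.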
